A study of Mus musculus with 12 samples.

Results

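The 8 genes described here belong to cholesterol synthesis and to the sterol-dependent supply of cholesterol to cells: Hmgcs1, Sqle, Hsd17b7, Mylip, Insig1, Insig2, Srebf1 and Srebf2. They were named with earlier results of these data known, and their rows on the array were selected on gene symbol and, for a gene with several rows, on the highest mean level over all 12 arrays. Each of the 8 had exactly 1 row, so that second step chose nothing, and all 8 of the 22180 genes in the table, of which 13747 were bright enough to be tested, passed the filter on dim genes. The samples were plantaris muscles, a fast calf muscle, from male mice aged 12 weeks, with 3 arrays in each of 4 groups: REDD1 knockout exercised, REDD1 knockout sedentary, wild-type exercised and wild-type sedentary. Exercised mice had completed a single bout of aerobic exercise and were sampled 1 hour after it, all mice had been kept without food for 3 hours beforehand, and all were under isoflurane when the muscle was removed. REDD1, encoded by Ddit4, restrains the growth-promoting kinase complex mTORC1, and the labels give neither the deleted part of the gene nor the strain. The LDL receptor gene itself is not analysed here, so that the uptake side is represented by Mylip, the ligase that marks the receptor for degradation.

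Cells make cholesterol from acetyl-CoA by a long series of enzymes and also take it up as LDL. Both routes are controlled by the transcription factor SREBP-2, encoded by Srebf2, while SREBP-1, encoded by Srebf1, acts mainly on fatty acid synthesis. When sterols are plentiful, the INSIG proteins hold the SREBP escort SCAP in the endoplasmic reticulum, and when sterols fall SCAP carries SREBP to the Golgi, where proteases release its active part. The myelinating Schwann cells of the nerves within muscle are known for a high rate of cholesterol synthesis.

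Of these genes, 2 stood out, each in a different comparison. Hsd17b7, the sterol reductase, was higher in knockout than in wild-type muscle (1.76-fold averaged over sedentary and exercised mice), and Mylip was lower after exercise (1.72-fold averaged over both genotypes). The other 6 passed no test in any of the 7 comparisons. Among them, Hmgcs1 and Sqle varied more between mice of one group than between groups, and their levels went with those of Schwann cell and nerve markers on the same arrays.

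Of the 7 genes with a window in the table, Sqle having none, only Hmgcs1 had a match to the letters searched for as the sterol response element, a site of SREBP. The stretches before the start of the genes with a difference are shown first, together with that of Hmgcs1. They are the 250 bases before an annotated start, 5′ to 3′ on the gene's strand, from RefSeq on GRCm38.p6, at chr1:169969206-169969455 on the minus strand for Hsd17b7, chr13:45389492-45389741 on the plus strand for Mylip and chr13:119690101-119690350 on the plus strand for Hmgcs1. The annotated gene of Hsd17b7 reaches to chr1:169969242, so that the last bases printed for it, with the NF-Y box nearest the start, lie within the gene. Capitals mark matches to the sterol response element, written TCACNCCAC, and to the box of the factor NF-Y, a common partner of SREBP, written CCAAT, or ATTGG where it lies on the other strand.
Hsd17b7: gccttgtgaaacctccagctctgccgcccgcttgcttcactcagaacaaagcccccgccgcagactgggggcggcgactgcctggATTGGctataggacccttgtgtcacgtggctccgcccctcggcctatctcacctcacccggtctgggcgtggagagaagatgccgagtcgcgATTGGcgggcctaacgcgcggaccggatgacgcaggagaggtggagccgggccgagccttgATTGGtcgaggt
Mylip: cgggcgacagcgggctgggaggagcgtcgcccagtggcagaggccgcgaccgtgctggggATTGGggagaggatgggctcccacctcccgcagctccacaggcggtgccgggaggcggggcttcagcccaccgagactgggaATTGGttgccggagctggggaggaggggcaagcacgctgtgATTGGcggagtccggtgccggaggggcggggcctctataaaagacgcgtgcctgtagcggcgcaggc
Hmgcs1: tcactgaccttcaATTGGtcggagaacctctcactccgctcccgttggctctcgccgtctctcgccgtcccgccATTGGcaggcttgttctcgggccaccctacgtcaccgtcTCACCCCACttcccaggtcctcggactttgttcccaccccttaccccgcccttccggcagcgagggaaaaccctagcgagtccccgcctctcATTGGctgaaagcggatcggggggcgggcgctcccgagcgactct

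The sterol response element of Hmgcs1 began 137 bases before the start and had the letters TCACCCCAC. Both strands were searched, and such a match was present in 1.05% of all 32851 windows of this length. Only this 1 spelling was searched for, and of 17 cholesterol synthesis enzymes with a window 1 had a match, which was Hmgcs1 itself. A window without a match was therefore not shown to lack a site of SREBP. Each of the printed windows held 3 NF-Y boxes, a motif found in 33.85% of all windows. Hsd17b7 also held 1 E-box (CACGTG, 6.02% of all windows) and 3 GC boxes (GGGCGG, 32.74%), Mylip 1 GC box and Hmgcs1 2. The cyclic AMP response element, TGACGTCA, present in 1.55% of all windows, was in none of the 11 windows of the 7 genes that had one in the table, and no matches of different motifs overlapped there.

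All 12 skeletal muscle fibre markers were bright, with mean log2 levels from 11.95 for Myh2 to 13.58 for Acta1, and their mean level lay within -0.04 to 0.05 of the mean of all arrays. Ddit4 lay between 5.72 and 6.77 in knockout exercised, 5.08 and 5.44 in knockout sedentary, 8.40 and 9.05 in wild-type exercised, and 5.83 and 6.13 in wild-type sedentary muscle, so that in each condition every knockout array was below every wild-type array. Some arrays stood apart in the markers of other cells. On wild-type exercised replicate 1 and knockout sedentary replicate 3 the Schwann cell and nerve markers, of which 12 of 15 were analysed, lay 0.89 and 0.80 above the mean of all arrays on the log2 scale. Markers of fibroblasts and their matrix were 0.84 above it on knockout sedentary replicate 3. Without both of these arrays, a check added after seeing the data, the averaged differences of the genes that passed were 0.86 for Hsd17b7 (knockout minus wild type, limma adjusted p = 0.000688) and -0.72 for Mylip (exercised minus sedentary, adjusted p = 0.00226).

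**Figure D1:**
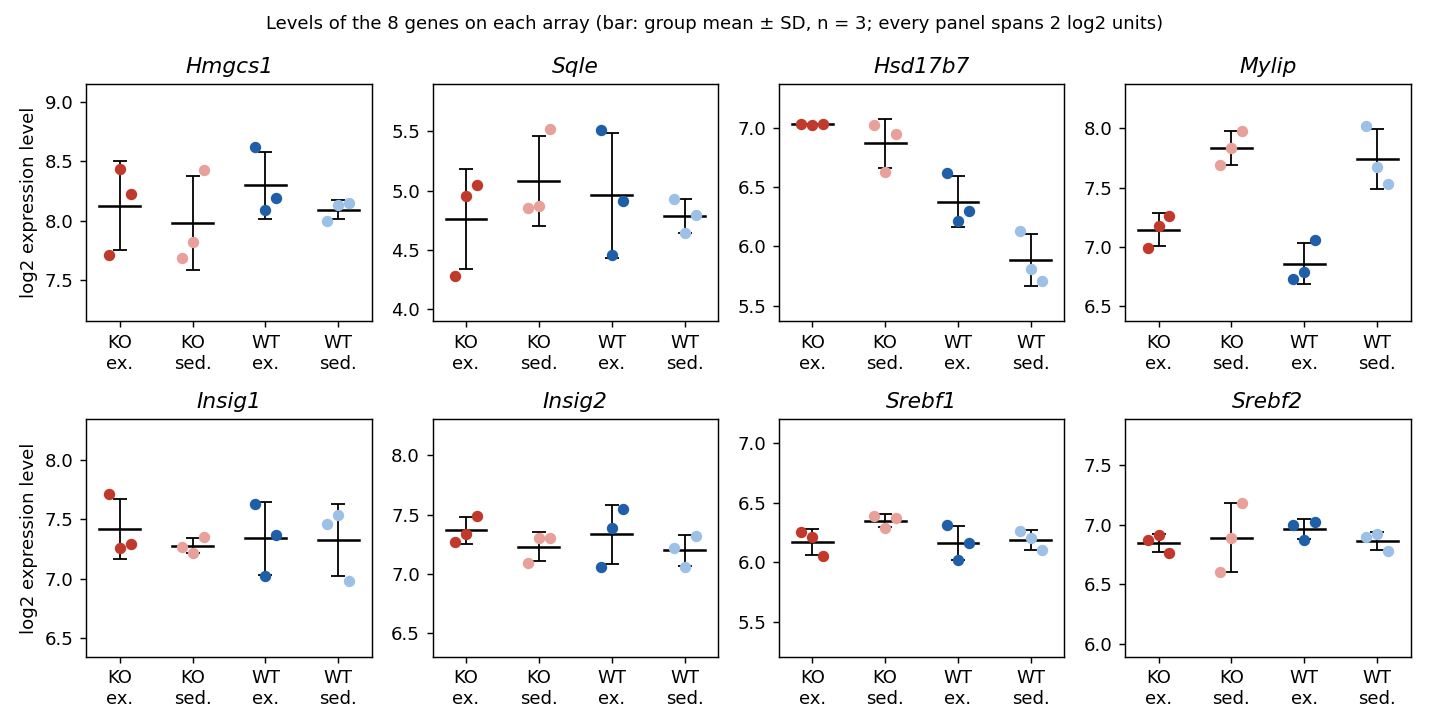
Log2 expression level (vertical axis) of each of the 8 genes on each of the 12 arrays (points), by group along the horizontal axis (KO, REDD1 knockout; WT, wild type; ex., exercised; sed., sedentary), with group means and SD (bars, n = 3). Hsd17b7 steps down across the groups, with means of 7.03, 6.86, 6.37 and 5.88, Mylip is lower in the exercised groups, and the other genes overlap between groups, apart from Srebf1 in 2 pairs of groups.

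Hsd17b7 encodes a reductase that acts late in cholesterol synthesis, where it reduces the keto group left by removal of a methyl group from the sterol ring, and it can also reduce estrone. Its log2 levels were 7.03, 7.02 and 7.03 in knockout exercised and 7.02, 6.63 and 6.95 in knockout sedentary muscle. They were 6.62, 6.21 and 6.30 in wild-type exercised and 6.13, 5.81 and 5.71 in wild-type sedentary muscle. Every knockout array was thus above every wild-type array of either condition, although the lowest knockout value, 6.63, and the highest wild-type value, 6.62, nearly touched.

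In sedentary muscle Hsd17b7 was 1.97-fold higher in the knockout (log2 fold change 0.98, SE 0.14, limma adjusted p = 0.00741 over all genes tested). In exercised muscle it was 1.57-fold higher (0.65, SE 0.14), which did not pass (adjusted p = 0.0986). Averaged over both conditions the difference was 0.82 (SE 0.10, adjusted p = 0.000708), with 6 knockout arrays against 6 wild-type arrays. It was the only one of the 8 genes called between the genotypes in sedentary muscle, where 0.138% of all genes were called, and in the average, where 0.546% were called. None of the 8 was called between the genotypes in exercised muscle by limma, where 0.175% of all genes were called (unadjusted p under 0.05 for 1 of the 8). Since the genes were picked with such results in view, these counts are a description and no support. Schwann cell and nerve markers also had higher values in the knockout, above 0 for 12 of 12 with a median of 0.23 averaged over conditions, though none was called (unadjusted p under 0.05 for 0), and their part in the difference was not tested. The sedentary difference no longer passed without knockout sedentary replicate 1 (0.91, adjusted p = 0.0637), and the exercised one did pass without wild-type exercised replicate 1 (0.78, adjusted p = 0.0311).

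With exercise, Hsd17b7 differed by 0.16 in the knockout (95% interval -0.13 to 0.46) and by 0.49 in wild type (0.19 to 0.79). Neither passed over all genes (adjusted p = 0.821 and 0.206). In wild type the exercised arrays all lay above the sedentary ones, while in the knockout the highest sedentary and the lowest exercised array were equal at 2 decimals. The difference between these exercise effects, knockout minus wild type, was -0.33 (95% interval -0.75 to 0.09, adjusted p = 0.997), so a weaker response in the knockout was not shown. Of neighbouring group means, knockout exercised and knockout sedentary differed by less than the SD of the sedentary group, 0.21, wild-type exercised and wild-type sedentary did not pass, and knockout sedentary against wild-type exercised was not a comparison of the design.

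Mylip, also called IDOL, is the ubiquitin ligase that sends the LDL receptor and related receptors to degradation, and its gene is switched on by the sterol-sensing nuclear receptor LXR. Its log2 levels were 6.99, 7.18 and 7.26 in knockout exercised, against 7.69, 7.83 and 7.98 in knockout sedentary muscle. They were 6.73, 6.79 and 7.06 in wild-type exercised, against 8.02, 7.67 and 7.53 in wild-type sedentary muscle. In both genotypes all exercised arrays lay below all sedentary arrays, and the lowest sedentary array of either genotype was above the highest exercised array of either genotype.

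Mylip fell by 0.88 on the log2 scale after exercise in wild type (SE 0.14, limma adjusted p = 0.00488). In the knockout it was 0.69 lower by value (log2 fold change -0.69, SE 0.14), which lay at the threshold and did not pass (adjusted p = 0.0503). Averaged over the genotypes it fell 1.72-fold (-0.79, SE 0.10, adjusted p = 0.000408). It was the only one of the 8 genes called for exercise in wild type, where 0.567% of all genes were called, and for the average, where 1.6% were called. None of the 8 was called for exercise in the knockout by limma, where 0.276% of all genes were called (unadjusted p under 0.05 for 1 of the 8). The knockout value passed under 7 of 22 alternatives, among them quantile normalisation (-0.71, adjusted p = 0.0276). It also passed in the fits without wild-type exercised replicate 1 (-0.69, adjusted p = 0.0372), wild-type exercised replicate 3 (0.0431), wild-type sedentary replicate 1 (0.0317) and wild-type sedentary replicate 3 (0.0477). Leaving out a wild-type array kept the value at -0.69, since that array is in neither of the groups compared. No fit without a knockout array passed. By limma the adjusted p was 0.176 without knockout sedentary replicate 3 (-0.62) and 0.213 without knockout exercised replicate 1 (-0.62).

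The exercise effect on Mylip differed by 0.19 between the genotypes, knockout minus wild type (95% interval -0.22 to 0.60, adjusted p = 0.997), and 0% of all genes were called for this difference (unadjusted p under 0.05 for 620 genes). Knockout and wild-type levels overlapped in both conditions. The genotype difference was 0.28 in exercised muscle (95% interval -0.01 to 0.58) and 0.09 in sedentary muscle (-0.20 to 0.39).

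The mean level of the endothelial markers differed between the same groups as Mylip. All 12 of 12 were analysed, and their mean level, relative to the mean of all arrays, was -0.20 to -0.03 in knockout exercised against 0.08 to 0.15 in knockout sedentary muscle. It was -0.10 to -0.02 in wild-type exercised against 0.04 to 0.11 in wild-type sedentary muscle. With exercise averaged over genotypes the list's median was -0.24, and 2 of 12 were called lower by limma, against 0.509% of all genes. They were Kdr, a receptor of vascular endothelial growth factor, and Cdh5, an endothelial cadherin. The log2 fold change of Kdr was -0.80 (SE 0.09, limma adjusted p = 9.27e-05), beside -0.79 for Mylip. That of Cdh5 was -0.28 (SE 0.07, limma adjusted p = 0.0448). The markers did not all go the same way in this comparison, with 9 of 12 values below 0 and 3 above 0. Those above 0 were Flt1 at 0.18, Esam at 0.06 and Ptprb at 0.02. Pecam1 and Tie1 were at -0.08 and -0.04. As deviations from the group means, Mylip and the marker level had r = 0.363 (exact permutation p = 0.248 within groups, adjusted 0.734), and no r over all arrays is given since exercised and sedentary arrays form separate clusters. The part of endothelial cells in the Mylip result was not tested. In whole muscle, fewer cells of a type and less RNA per cell cannot be told apart.

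**Figure D2:**
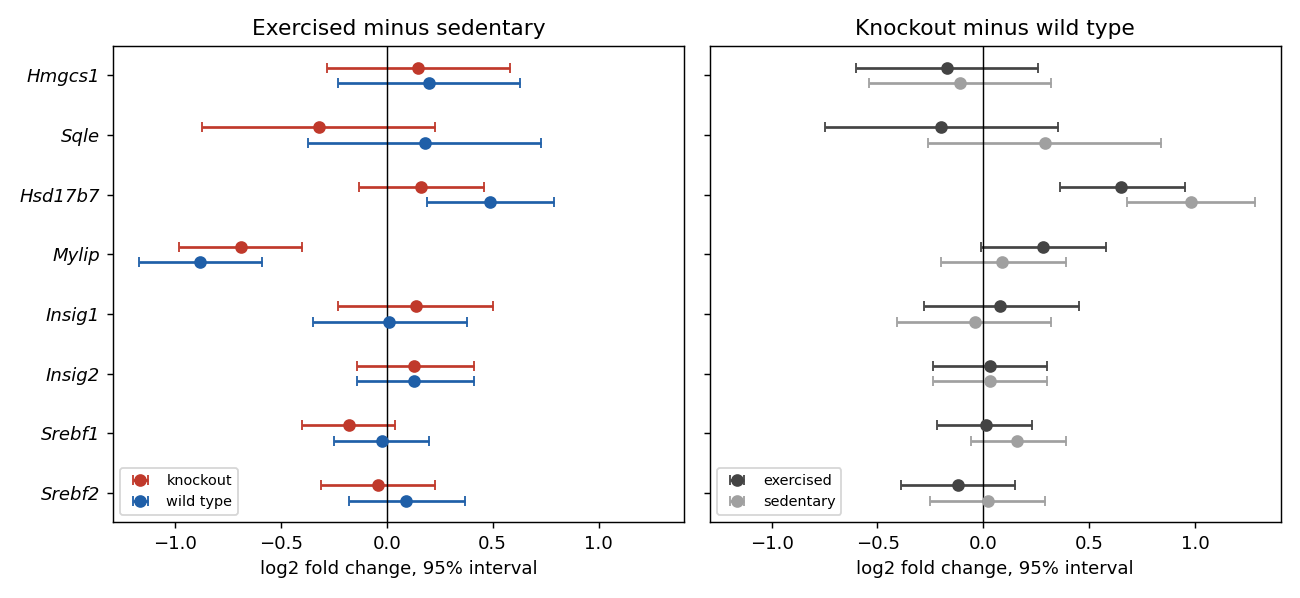
Log2 fold changes (horizontal axes) of the 8 genes with 95% intervals, exercised minus sedentary in each genotype (left) and knockout minus wild type in each condition (right), from limma with 3 arrays per group. The intervals of Mylip on the left (-0.98 to -0.40 in the knockout and -1.17 to -0.59 in wild type) and of Hsd17b7 on the right (0.36 to 0.95 exercised and 0.68 to 1.28 sedentary) exclude 0, as does that of Hsd17b7 for exercise in wild type.

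Hmgcs1 encodes the cytosolic HMG-CoA synthase, which makes the substrate of the pathway's rate-limiting reductase. Its log2 levels were 7.71, 8.44 and 8.23 in knockout exercised and 7.69, 7.82 and 8.43 in knockout sedentary muscle. They were 8.62, 8.09 and 8.19 in wild-type exercised and 8.0, 8.13 and 8.15 in wild-type sedentary muscle. The knockout groups each spanned more than any difference between group means, and all groups overlapped.

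Sqle encodes squalene epoxidase, which starts the conversion of the linear squalene into sterols. Its log2 levels were 4.28, 4.95 and 5.05 in knockout exercised and 4.85, 4.87 and 5.52 in knockout sedentary muscle. They were 5.51, 4.46 and 4.91 in wild-type exercised and 4.93, 4.64 and 4.79 in wild-type sedentary muscle. Sqle was dim, above the table median of 4.56 in 10 of 12 arrays, and its highest values were on the same arrays that stood apart in Schwann cell markers.

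Neither gene passed a test. Averaged over genotypes, the exercise effect was 0.17 for Hmgcs1 (95% interval -0.13 to 0.48) and -0.07 for Sqle (-0.46 to 0.32). Averaged over conditions, the genotype difference was -0.14 for Hmgcs1 (-0.44 to 0.16) and 0.05 for Sqle (-0.34 to 0.43). The intervals reach 0.48 for Hmgcs1 and -0.46 for Sqle, so that equal levels were not shown.

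Across the 12 arrays the levels of these enzymes went with those of the Schwann cell and nerve markers. Of the 12 markers analysed, 8 were above the table median on all 12 arrays, and the dimmest, Mag, was above it on 3. The marker level, as the mean difference from all arrays, was -0.45, 0.62 and 0.37 in knockout exercised, -0.44, -0.14 and 0.80 in knockout sedentary, 0.89, -0.51 and -0.03 in wild-type exercised, and -0.21, -0.41 and -0.50 in wild-type sedentary muscle. In the knockout exercised, knockout sedentary and wild-type exercised groups the array lowest in these markers was also the lowest in both enzymes, while in wild-type sedentary muscle it was not. For exercise averaged over genotypes 12 of 12 markers had values above 0, with a median of 0.30, and none was called (unadjusted p under 0.05 for 0). Across the 12 arrays Pearson's r with the marker level was 0.813 for Hmgcs1 (permutation p = 0.00123, adjusted 0.0332) and Spearman's rho was 0.741 (permutation p = 0.00752, adjusted 0.114). For Sqle, r was 0.856 (permutation p = 4e-05, adjusted 0.00216) and rho 0.916 (permutation p = 7e-05, adjusted 0.00378). Adjustment was over 54 relations, each of the 8 genes and the other enzymes' mean with each of 6 marker lists.

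Without the 2 arrays farthest from the median marker level, r was 0.652 for both Hmgcs1 (permutation p = 0.0414) and Sqle (permutation p = 0.0362). As deviations from the group means, which leaves the groups out of account, r was 0.938 for Hmgcs1 (exact permutation p = 0.0054 within groups) and 0.96 for Sqle (exact permutation p = 0.00694), and neither passed after adjustment (adjusted 0.187 each). The mean of the 15 other cholesterol enzymes analysed went the same way, with r = 0.777 (permutation p = 0.0029, adjusted 0.0391), rho = 0.734 (permutation p = 0.00845, adjusted 0.114) and r = 0.812 without the 2 farthest arrays. As deviations from the group means its r was 0.774 (exact permutation p = 0.0216 within groups), which did not pass after adjustment (0.389). For Hsd17b7 r was 0.487 (permutation p = 0.109, rho 0.329, permutation p = 0.297), and for Mylip it was -0.12 (permutation p = 0.701, rho 0.035, permutation p = 0.921). The labels name no batch, and the part of nerve tissue in the levels of Hmgcs1 and Sqle was not tested.

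**Figure D3:**
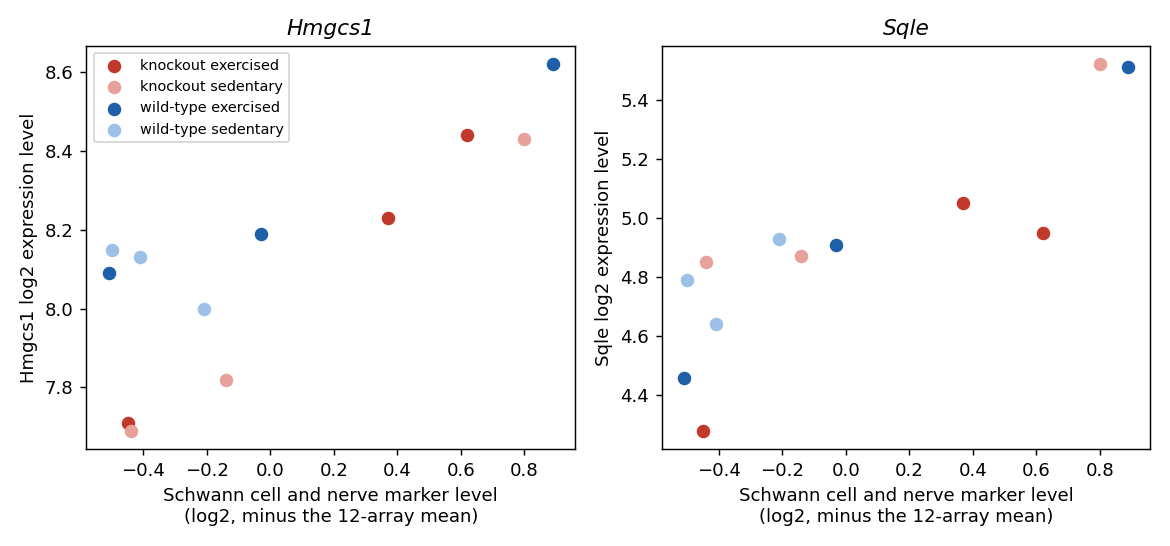
Log2 expression level of Hmgcs1 (left) and Sqle (right) against the mean level of 12 Schwann cell and nerve markers relative to the mean of all arrays (log2, horizontal axes), 1 point per array and colours by group. The arrays with marker levels of 0.80 and 0.89 have Sqle at 5.52 and 5.51, above the other 10, and Pearson's r is 0.813 for Hmgcs1 and 0.856 for Sqle.

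None of the regulators passed a test. Insig1 and Insig2 encode the sterol-sensing anchors of SCAP, and Insig1 is itself a target of SREBP. Insig1 had log2 levels of 7.71, 7.26 and 7.29 in knockout exercised, 7.27, 7.22 and 7.35 in knockout sedentary, 7.63, 7.02 and 7.37 in wild-type exercised, and 7.46, 7.54 and 6.98 in wild-type sedentary muscle. Insig2 had 7.27, 7.34 and 7.49 in knockout exercised, 7.09, 7.30 and 7.30 in knockout sedentary, 7.06, 7.39 and 7.55 in wild-type exercised, and 7.22, 7.06 and 7.32 in wild-type sedentary muscle. The groups overlapped for both genes. The exercise effect averaged over genotypes was 0.07 for Insig1 (95% interval -0.18 to 0.33) and 0.13 for Insig2 (-0.06 to 0.33), and the averaged genotype difference was 0.02 for Insig1 (-0.24 to 0.28) and 0.03 for Insig2 (-0.16 to 0.22).

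Srebf1 and Srebf2 encode the SREBP precursors, whose activity is set mostly by cleavage, which an mRNA array does not measure. Srebf1 had log2 levels of 6.25, 6.21 and 6.05 in knockout exercised, 6.39, 6.29 and 6.37 in knockout sedentary, 6.31, 6.02 and 6.16 in wild-type exercised, and 6.26, 6.20 and 6.10 in wild-type sedentary muscle. The knockout sedentary arrays lay above both the knockout exercised and the wild-type sedentary arrays, by small amounts. The exercise effect in the knockout was -0.18 (95% interval -0.40 to 0.04, limma adjusted p = 0.689), and the genotype difference in sedentary muscle was 0.16 (-0.06 to 0.39, adjusted p = 0.755). Srebf2 had 6.87, 6.91 and 6.76 in knockout exercised, 6.60, 6.89 and 7.18 in knockout sedentary, 7.0, 6.87 and 7.02 in wild-type exercised, and 6.90, 6.92 and 6.78 in wild-type sedentary muscle. Its averaged exercise effect was 0.03 (-0.17 to 0.22) and its averaged genotype difference -0.05 (-0.24 to 0.14). Scap, the escort, differed by -0.02 with exercise (95% interval -0.22 to 0.18) and by -0.03 between genotypes (-0.23 to 0.17), both averaged.

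The remaining genes of the pathway were counted by list. Of all 13747 genes tested by limma, an unadjusted p under 0.05 was found for 1541 in averaged exercise and 1287 in averaged genotype. For knockout against wild type in exercised muscle it was found for 905. Of 22 cholesterol synthesis enzymes listed, 18 were tested, among them Hmgcs1, Sqle and Hsd17b7. Averaged over genotypes, 0 rose and 0 fell with exercise by limma (unadjusted p under 0.05 for 3, and 1.09% of all genes called higher and 0.509% lower), with a median of 0.05 against -0.011 over all genes. Averaged over conditions, 1 was higher in the knockout, Hsd17b7 itself, and 0 lower (0.211% of all genes called higher and 0.335% lower), with a median of 0.00 against -0.007 over all genes. The widest differences among the other enzymes were those of the lanosterol demethylase gene Cyp51, at 0.31 for exercise (95% interval -0.04 to 0.65) and 0.34 for genotype (0.00 to 0.68), and of Dhcr7, the last reductase of the pathway, at 0.30 for exercise (0.08 to 0.52). Ggps1, which diverts intermediates to protein prenylation, was at -0.27 for exercise (-0.47 to -0.08), Mvd, a mevalonate pathway decarboxylase gene, at 0.23 and Msmo1, a sterol oxidase gene, at 0.22. None of these passed.

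For SREBP processing and sterol sensing 18 symbols were listed, with Marchf6 also under its older symbol March6. Of the listed genes 14 were tested and 0 were called in any of the 7 comparisons by limma (unadjusted p under 0.05 for 2 in knockout against wild type in exercised muscle, 1 in averaged exercise, 1 in averaged genotype and 0 in the other comparisons). Their medians were 0.00 for averaged exercise and 0.00 for averaged genotype. The widest values outside the 8 genes were 0.23 for genotype in Rnf145, a sterol-responsive ligase (95% interval 0.05 to 0.42), and -0.19 for exercise in Mbtps1, the first SREBP protease (-0.37 to -0.01), followed by Marchf6, Erlin1 and Faf2, none beyond 0.11 in size.

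Of 18 genes of LDL receptor uptake and degradation listed, 15 were tested. For averaged exercise 1 fell, Mylip, and 1 rose, the deubiquitinase gene Usp2 (0.39, SE 0.09, limma adjusted p = 0.0376), whose product has been described as sparing the LDL receptor from the Mylip product. Of all genes 1.09% were called higher and 0.509% lower in that comparison, and 5 of the 15 had an unadjusted p under 0.05. The list's median was -0.07 for exercise and 0.06 for genotype. For genotype none passed by limma (unadjusted p under 0.05 for 4 of 15). Usp2 lay at 9.93 to 10.26 in knockout exercised against 9.76 to 9.94 in knockout sedentary muscle, which overlapped, and at 10.18 to 10.36 in wild-type exercised against 9.54 to 10.06 in wild-type sedentary muscle. For averaged genotype, Npc1, which moves cholesterol out of lysosomes, came nearest at 0.43 (95% interval 0.23 to 0.63, adjusted p = 0.053), and the lipoprotein receptor gene Vldlr was at 0.30 (0.13 to 0.47). Stard4, a sterol carrier, was at -0.36 for exercise (-0.59 to -0.13), Dab2, an adaptor of receptor uptake, at -0.30 (-0.53 to -0.08) and Ube2d1, a partner enzyme of ubiquitin ligases, at -0.27 (-0.48 to -0.06). Stard4 was dim, above the table median in 10 of 12 arrays.

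Of 18 LXR targets and cholesterol efflux genes listed, 13 were tested, with Srebf1 and Mylip among them. Abca1, the cholesterol exporter and a classical LXR target, was higher in the knockout averaged over conditions (0.33, SE 0.07, limma adjusted p = 0.0451) and was the only one of the list called for genotype, where 0.211% of all genes were called higher (unadjusted p under 0.05 for 5 of 13). Its levels did not overlap between genotypes, at 7.37 to 7.51 in knockout against 7.09 to 7.27 in wild-type exercised muscle and 7.65 to 7.81 in knockout against 7.23 to 7.37 in wild-type sedentary muscle. Scarb1, the HDL receptor, fell by 0.35 with exercise averaged over genotypes (SE 0.08, adjusted p = 0.0451), and with Mylip made up the 2 of 13 that fell, while 0 rose, against 0.509% of all genes called lower and 1.09% higher (unadjusted p under 0.05 for 4 of 13). The medians were -0.08 for exercise and 0.13 for genotype, against -0.011 and -0.007 over all genes, and 11 of 13 values were above 0 for genotype. Without passing, Nceh1, a cholesteryl ester hydrolase, was at -0.49 for genotype (95% interval -0.76 to -0.23), the lipid carrier genes Apod and Apoe at 0.58 (0.11 to 1.04) and 0.27 (0.01 to 0.52), Abcg4 at 0.29 and Ch25h at 0.22. Ch25h was dim, above the table median in only 3 of 12 arrays, and Abcg4 was above it in 10.

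**Figure D4:**
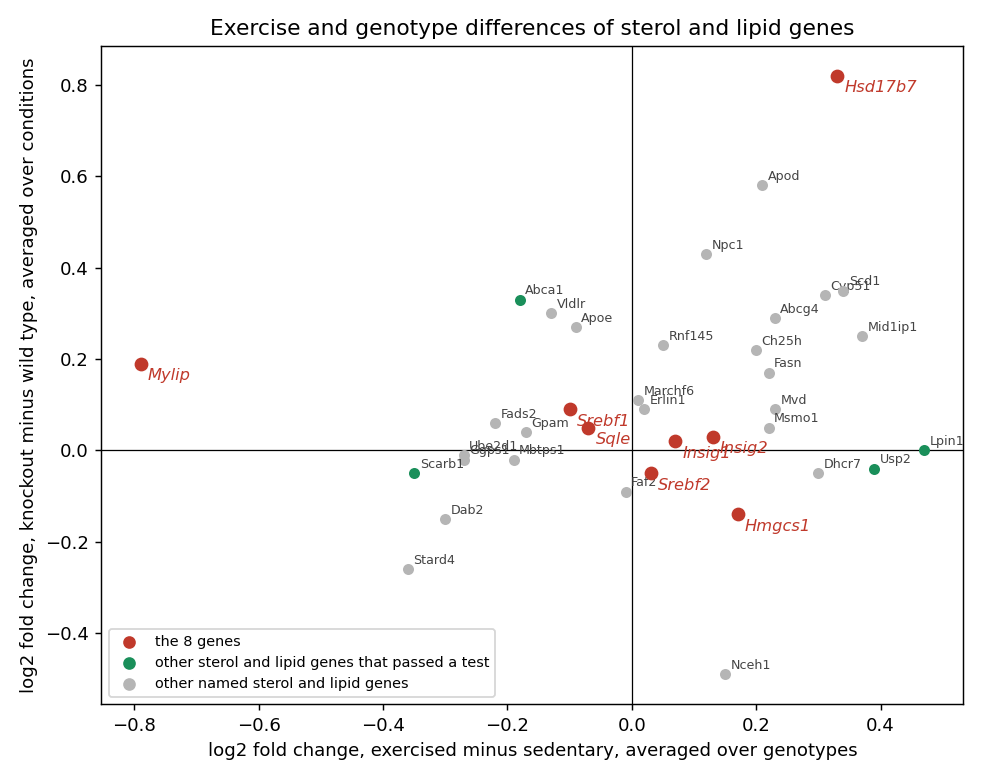
Log2 fold changes of the 8 genes (red) and of the other named sterol and lipid genes, averaged over genotypes for exercise (horizontal axis, exercised minus sedentary) and over conditions for genotype (vertical axis, knockout minus wild type). Mylip lies far to the left at -0.79 and Hsd17b7 at the top at 0.82, while the other 6 genes lie within 0.2 of 0 on both axes, and the 4 other genes that passed a test are Abca1, Scarb1, Usp2 and Lpin1.

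The genes whose levels over the 12 arrays were most like each of the 8, by Pearson's r over all tested genes, were taken as a description without a test. For Hsd17b7 they were Ahcy, the hydrolase of S-adenosylhomocysteine (r = 0.949), Gfer, a mitochondrial sulfhydryl oxidase (0.944), and Peli2 (0.907). For Mylip they were Hoxa2 (0.940), Nt5dc1 (0.935) and Efnb2, a ligand of arterial endothelium (0.933). For Hmgcs1 they were Pea15a (0.936), Scube1 (0.906) and Sema3b (0.892), and for Sqle Sema5a (0.917), Gatm (0.917) and Secisbp2l (0.914). No gene was shared between Hmgcs1 and Sqle, whose own r was 0.711 (permutation p = 0.0091, adjusted over 28 pairs 0.255; rho 0.72, permutation p = 0.0104, adjusted 0.265; r 0.698 without the 2 farthest arrays). The nearest genes of the regulators were Snord22, Snora78 and Neurog1 for Insig1 (0.855 to 0.908), Hipk1, Agpat5 and Mcl1 for Insig2 (0.888 to 0.920), Prr3, Tgfbi and L3hypdh for Srebf1 (0.865 to 0.949), and Emp1, Map4k4 and Lrrc32 for Srebf2 (0.862 to 0.953). Among the 28 pairs no other had a lower adjusted p for Pearson's r than Hmgcs1 and Sqle.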

How the data were processed

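Gene expression was measured on 12 Affymetrix whole-transcript arrays. The authors' deposited table holds 1 value for each transcript cluster and array, taken as log2 because the values span 0.357 to 13.9. The log base, background correction, normalisation and summarisation are not given in the sources used here, and Partek is the only software in the submitters' processing notes. Array medians lay between 4.52 and 4.60. For the present work, rows with 1 symbol in the platform annotation were used (23521 of 41345; 1814 had several), with symbols updated by gene identifier, and the brightest row per gene was kept. Genes above the table median, 4.56, in at least 3 arrays were tested (13747 of 22180). R 4.3.3 with limma 3.58.1 (lmFit and eBayes with an intensity trend) fitted 1 mean per group over all 12 arrays, with 8 residual degrees of freedom, and 7 contrasts, two-sided, with Benjamini-Hochberg adjustment over all genes tested and a threshold of 0.05. The procedure was tested on simulated data. Correlations used 100000 permutations, or all 1296 permutations within groups. The number of arrays limits the precision. The labels do not say how the mice relate beyond genotype and treatment. The p-values of limma weigh a group difference against the spread between these samples within groups, moderated across genes.

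The 8 genes, the pathway and marker lists and the rule for naming genes were chosen with earlier results of these data known. The rule named the 8 genes on every array, every listed pathway gene called in a contrast, up to 5 further genes per list with the widest averaged difference, a few fixed genes, some of which are not analysed here, and the 3 genes most like each of the 8. The alternatives were median centring, quantile normalisation, other filters, mean rows, other priors, array weights, fits of 2 groups and each array left out, with 1 alternative added after seeing the data.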

Additional observations from a re-analysis of the deposited data

How the results depend on the processing

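Of 22 alternatives, 21 give averages. In these Hsd17b7 was 0.77 to 0.88 higher in the knockout averaged over conditions, Mylip was at -0.84 to -0.71 after exercise averaged over genotypes, and both passed each time. The number of the 8 genes called for exercise in the knockout, 0 as reported, was 1 with quantile normalisation, 1 with only genes above the median in all 12 arrays and 1 with array weights, and 0 to 1 with an array left out, the gene being Mylip each time. With an array left out, the number was 1 only where that array was wild type. For exercise in wild type it was 0 by least squares without moderation, against 1 as reported. For knockout against wild type in exercised muscle it was 1 with array weights, 0 to 1 with an array left out and 1 without both arrays that stood apart, an alternative added after seeing the data, against 0 as reported. In sedentary muscle it was 0 by least squares without moderation and 0 to 1 with an array left out, against 1 as reported. The cause was not tested. No called value changed sign; of the 52 values that were not called, 27 changed sign under some alternative. Sqle, below the median in some arrays, gave no value under the strictest filter. No paired analysis was possible because the labels give the samples running numbers that pair nothing across groups. The deposited table gives no signal over background, so what dimness limits was judged from the table median only.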

Other observations

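The fatty acid synthesis genes that SREBP-1 is known to act on were listed separately, and 18 of 19 were tested. Lpin1, a phosphatidic acid phosphatase and coactivator of fat oxidation, rose with exercise averaged over genotypes (log2 fold change 0.47, SE 0.08, limma adjusted p = 0.005) and was the only one called, where 1.09% of all genes were called higher (unadjusted p under 0.05 for 2 of 18). Its levels were 10.66 to 10.75 in knockout exercised against 9.98 to 10.43 in knockout sedentary muscle, and 10.50 to 10.79 in wild-type exercised against 10.16 to 10.30 in wild-type sedentary muscle, without overlap in either genotype. The list's median was 0.04 for averaged exercise and 0.06 for averaged genotype. Without passing, Mid1ip1 was at 0.37 for exercise (95% interval 0.00 to 0.74), Scd1 at 0.34 (-0.06 to 0.74), Fasn at 0.22 (-0.27 to 0.71), Fads2 at -0.22 (-0.49 to 0.05) and Gpam at -0.17 (-0.33 to 0.00).

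Scap had a second row on the array, with a mean of 4.32 against 7.42 for the one used, below the table median. Among the other named sterol and lipid genes, Npc1, Nceh1 and Ch25h had 2 rows each and Mid1ip1 had 3. Their brightest row was used, and the values of the others are not given here.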
